A study of Mus musculus with 28 samples.

Results

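The immediate early genes described here are 10 genes that cells switch on within minutes of a stimulus, without new protein synthesis: Fos, Fosb, Jun, Junb, Jund, Egr1, Nr4a1, Ier2, Atf3 and Dusp1. They were taken by gene symbol from both deposited count tables, 10 of 43280 tabled features, and all 10 passed the expression filter that left 17519 genes for testing. Their level is given in CPM, the reads of a gene divided by all reads of its library and multiplied by 1000000. The study followed polyA RNA of male mouse germ cells from a synchronised start towards meiosis, with and without Stra8, a gene that retinoic acid turns on and that is needed for meiosis to begin. The 7 KO groups were Stra8 knockout mice and the 7 WT groups carried intact Stra8, both derived from C57BL/6 x 129s4/SvJae. All of them, controls included, first received WIN 18,446, which blocks retinoic acid synthesis, for 7 days. They were then taken untreated (0 h) or at 12, 18, 48, 72, 96 or 120 h after a dose of retinoic acid (RA). Cells positive for the PIWIL2-eGFP reporter, a germ cell reporter that the KO and WT mice shared, were sorted from fresh testis. Every group had 2 libraries, 28 in all. The labels give no age, no dose, no map of the deletion and no number of animals per library, and they do not say that replicates are separate animals. Every p-value below therefore measures only the spread between these libraries, which may be technical.

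Fos, Fosb, Jun, Junb and Jund encode subunits of AP-1, a transcription factor that binds DNA as a pair of basic leucine zipper proteins, and Atf3 encodes a zipper protein that can pair with Jun proteins. Egr1 encodes a zinc finger transcription factor, Nr4a1 an orphan nuclear receptor, and Ier2 a small nuclear protein. Dusp1 encodes a phosphatase that switches MAP kinases off again. Growth factors and stress reach these genes through MAP kinases that act on SRF with its ETS partners, and cAMP signals reach them through CREB. In the testis, FGF and GDNF from somatic cells signal through MAP kinases to keep spermatogonia undifferentiated. Cell dissociation and sorting are also known to induce immediate early genes, and every library here came from sorted cells.

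Total reads were 914126 to 9517360 in KO libraries and 5757921 to 10147341 in WT libraries. The KO libraries of the second count table at 72, 96 and 120 h were shallow (1079696, 914126 and 1031189 reads). The shallow KO library at 72 h also stood apart in summed Sertoli cell markers (993 CPM, of which Clu was 631 CPM). Summed markers of germ cells (Ddx4, Dazl, Piwil2, Mael and Tex101) were 3328 to 4102 CPM in KO libraries and 2212 to 4718 CPM in WT libraries. Of 7 Leydig cell markers, Insl3 had 0 reads in 28 of 28 libraries, while Star was detected in every library (3.99 to 12.97 CPM). Cyp11a1, Hsd3b1, Cyp17a1, Lhcgr and Hsd3b6 were at 0 in 9, 11, 16, 20 and 23 libraries. The 7 summed to 5.04 to 15.7 CPM in KO libraries and 4.93 to 9.16 CPM in WT libraries. Stra8 was lower in both KO libraries than in both WT libraries at 7 of 7 times, with a mean log2 fold change of -4.35 ± 0.39 (SE; edgeR, adjusted p = 1.24e-06). The KO library of replicate 1 at 48 h held 62.1 CPM of Stra8, against 2.09 CPM in its partner and 97.0 and 199 CPM in WT. The mitochondrial share of reads was 3.21 to 8.55% except in the 7 first-table WT libraries, where it was 1.98 to 3.06%.

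Over the whole course, KO against WT, 6 of the 10 genes were higher in KO and 0 were lower. These were Junb, Egr1, Jun, Nr4a1, Jund and Ier2, with log2 fold changes of 0.48 to 0.97. Of all 17519 genes, 37.5% passed this test in either direction, 17.4% higher and 20.1% lower in KO. The median log2 fold change was 0.49 over the 10 genes and -0.02 over all genes. Fos, Fosb, Atf3 and Dusp1 did not pass. The comparison is a contrast of the mean of 7 KO group means with the mean of 7 WT group means in edgeR's quasi-likelihood test, adjusted over all genes by Benjamini-Hochberg at a threshold of 0.05. It takes the libraries of different times as independent. Same-numbered WT libraries of different times in fact deviated together (r of 0.258 to 0.517 over all tested genes). The SE and p-values of this comparison, and the shares of all genes that passed it, may therefore overstate the certainty. In bulk RNA, fewer cells of a type and less RNA per cell cannot be told apart.

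**Figure D1:**
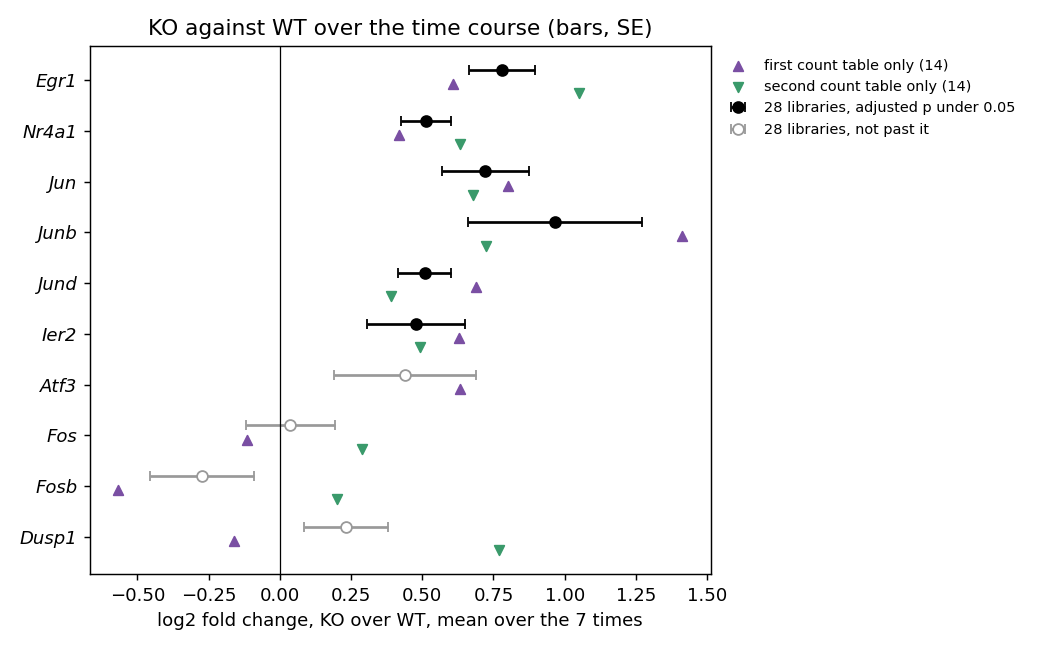
Log2 fold change of KO over WT as the mean over the 7 times for the 10 genes, from all 28 libraries (circles, bars are SE; filled circles passed the adjusted threshold of 0.05) and within each count table (triangles, 14 libraries each; Atf3 was too low to be fitted in the second table). Egr1, Nr4a1, Jun, Junb, Jund and Ier2 lie right of 0 in all 3 fits, while Fos, Fosb and Dusp1 change sides between the tables.

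Egr1 lies on chr18:34859823-34864984 (GRCm38, plus strand, 2 exons) and was called over the course and at 120 h. In KO cells it had 0 h values of 230 and 227 CPM, 12 h values of 53.3 and 69.3, 18 h values of 79.8 and 77.5, 48 h values of 128 and 165, 72 h values of 190 and 187, 96 h values of 156 and 125, and 120 h values of 195 and 171. In WT cells it had 0 h values of 227 and 157 CPM, 12 h values of 57.9 and 38.8, 18 h values of 57.6 and 36.8, 48 h values of 75.1 and 75.1, 72 h values of 123 and 62.5, 96 h values of 68.9 and 96.2, and 120 h values of 84.5 and 46.3. Both genotypes were high before RA and low at 12 h. At 48 h and later the KO libraries held 125 to 195 CPM and the WT libraries 46.3 to 123 CPM. From 18 h on, both KO libraries lay above both WT libraries at 5 of 5 times. At those times 19.4, 20.5, 25.3, 22.3 and 30.3% of all genes had both KO libraries higher. Averaged over the 7 times, Egr1 was higher in KO by 0.78 ± 0.12 log2 units (SE; edgeR, adjusted p = 2.92e-05). It passed in all 41 other settings tried, with adjusted p-values up to 0.0048.

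At single times, the KO and WT comparison called 3 of the 10 genes at 120 h and none at the other 6 times. At 120 h, 15.4% of all genes passed and 8.54% of all genes were higher in KO. Egr1 was higher by 1.41 ± 0.31 log2 units (edgeR, adjusted p = 0.00518), but this call rested on 2 libraries. Without WT replicate 2 of 120 h it was 1.05 (adjusted p = 0.112), and without KO replicate 1 it was 1.19 (adjusted p = 0.0969). At 0 h, 0 of 17519 genes passed in edgeR, with 1193 at an unadjusted p under 0.05 and 0 by DESeq2, so a percentage called of 0 is the background there. At 12, 18, 48, 72 and 96 h, 1.18, 4.14, 0.308, 4.7 and 4.47% of all genes passed. Among the 10 genes, edgeR called 0 at each of these times, with 2, 2, 1, 4 and 3 at an unadjusted p under 0.05. DESeq2 called 4 of them at 72 h, namely Egr1, Nr4a1, Jun and Jund, and 0 at the other 4 times.

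Against its own 0 h, Egr1 was lower in WT cells at 6 of 6 later times, with log2 fold changes of -1.97 at 12 h, -2.05 at 18 h, -1.35 at 48 h, -1.01 at 72 h, -1.22 at 96 h and -1.50 at 120 h (edgeR, adjusted p from 1.54e-04 to 0.0327). In KO cells it passed at 12 h (-1.87 ± 0.32, adjusted p = 7.38e-04) and 18 h (-1.47 ± 0.31, adjusted p = 0.00541) and at no later time, where it was -0.60, -0.28, -0.70 and -0.33. With each genotype fitted alone, KO also passed at 48 h (-0.62, adjusted p = 0.0444) and 96 h (-0.74, adjusted p = 0.0307), and WT no longer passed at 72 h (adjusted p = 0.0897), so which later times were called depended on the fit. The difference in course was tested as genotype by time and did not pass for Egr1 (edgeR, adjusted p = 0.695). Among the 10 genes this test called 0, with 1 at an unadjusted p under 0.05 and 1 by DESeq2 (Nr4a1 in both), and 0.108% of all genes passed it. Without WT replicate 1 of 0 h, which had 227 CPM against 157 in its partner, the WT calls at 48, 72 and 96 h no longer passed (adjusted p = 0.0985, 0.276 and 0.0832). The KO call at 18 h was lost without replicate 1 of 0 h or either library of 18 h (adjusted p = 0.066, 0.0754 and 0.0753).

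**Figure D2:**
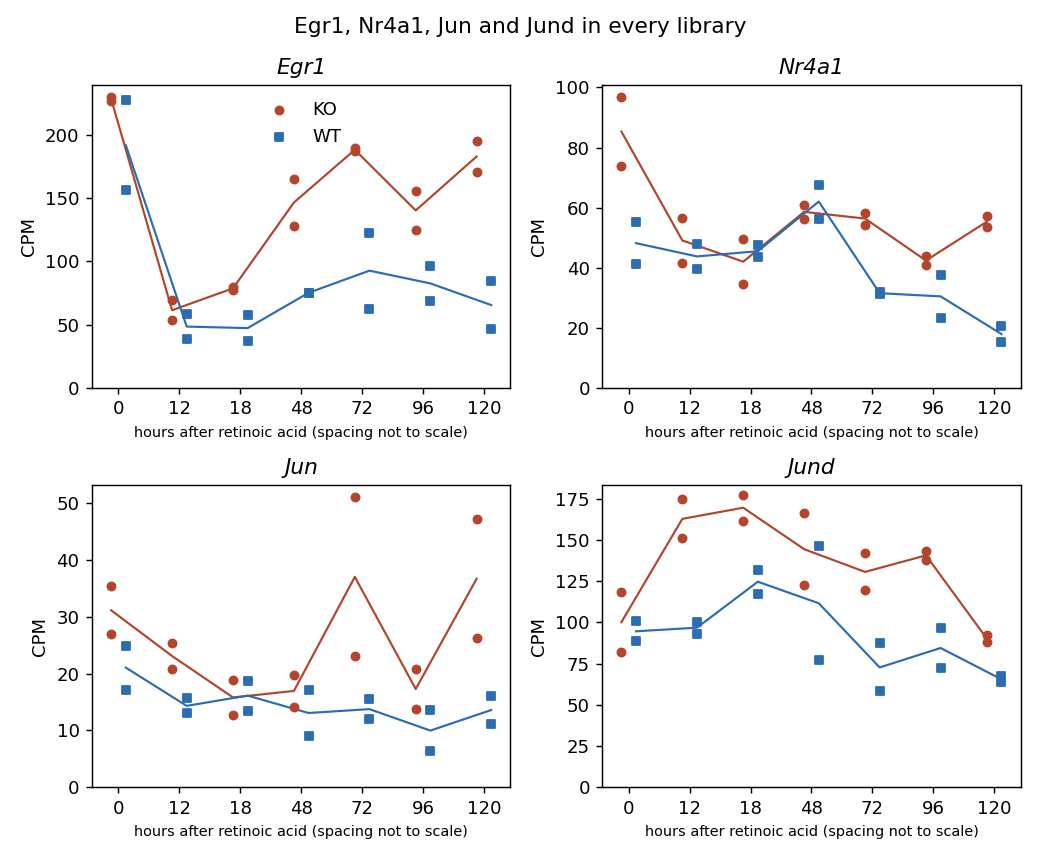
CPM of Egr1, Nr4a1, Jun and Jund in each of the 28 libraries (points) with the mean of each group (lines), by hours after RA, with KO as circles and WT as squares. Egr1 in KO was at 125 to 195 CPM from 48 h on, and Nr4a1 at 120 h was 53.4 and 57.2 CPM in KO and 20.5 and 15.2 CPM in WT.

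Nr4a1 was higher in KO over the course and, as a single time, at 120 h. In KO cells it had 0 h values of 96.8 and 73.9 CPM, 12 h values of 41.7 and 56.4, 18 h values of 34.5 and 49.5, 48 h values of 56.2 and 61.0, 72 h values of 54.3 and 58.3, 96 h values of 41.0 and 43.8, and 120 h values of 53.4 and 57.2. In WT cells it had 0 h values of 55.1 and 41.2 CPM, 12 h values of 47.9 and 39.6, 18 h values of 47.6 and 43.4, 48 h values of 67.7 and 56.3, 72 h values of 31.1 and 31.9, 96 h values of 23.2 and 37.7, and 120 h values of 20.5 and 15.2. The genotypes overlapped at 12, 18 and 48 h. Both KO libraries lay above both WT libraries at 0, 72, 96 and 120 h, as they did for 21.7, 25.3, 22.3 and 30.3% of all genes. At 0 h the log2 fold change of Nr4a1, 0.81, did not pass (edgeR, adjusted p = 0.71). The mean difference was 0.51 ± 0.089 log2 units (SE; edgeR, adjusted p = 1.01e-04). At 120 h Nr4a1 was higher in KO by 1.54 ± 0.25 (edgeR, adjusted p = 3.39e-04), a call that held in all 36 other settings tried, with adjusted p-values up to 0.0227.

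The KO course of Nr4a1 fell early and the WT course fell late. Against 0 h, the log2 fold changes that passed in KO were -0.78 ± 0.23 at 12 h (edgeR, adjusted p = 0.0359), -0.97 ± 0.23 at 18 h (0.0103) and -1.03 ± 0.24 at 96 h (0.0277). Those that passed in WT were -0.67 ± 0.23 at 96 h (edgeR, adjusted p = 0.0345) and -1.38 ± 0.24 at 120 h (1.60e-04). As a genotype by time interaction this difference had an unadjusted p of 8.02e-04 in edgeR and an adjusted p of 0.114, and adjusted p-values of 0.0163 in DESeq2 and 0.0093 without the expression filter. The 3 KO calls were lost without KO replicate 1 of 0 h (96.8 CPM), where the log2 fold changes were -0.56, -0.74 and -0.84. Those at 12, 18 and 96 h were lost in 10, 2 and 5 of 37 settings. Leaving out the 3 shallow KO libraries lost those at 12 and 96 h. The WT call at 96 h was lost without WT replicate 1 of 0 h (log2 fold change -0.50) or of 96 h (-0.39). The WT call at 120 h was not lost in any setting.

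Promoter sequences are shown here for 2 genes that were higher in KO (Nr4a1 and Jun) and, further on, for 2 that were not called (Fos and Dusp1), so that the factor sites they carry can be compared. Each is 300 bases around the RefSeq start site (GRCm38.p6), written on the strand of the gene. The motifs searched on both strands were the cAMP response element TGACGTCA, its core TGACG, the Jun-type octamer TGACATCA, the AP-1 site (TGACTCA or TGAGTCA), the EGR site GCGNGGGCG and the CArG box bound by SRF. Cores inside a full cAMP response element were counted as cores too. RefSeq windows were at hand for 8 of the 10 genes. A match is a description of the letters and says nothing of binding. The Nr4a1 window, chr15:101266596-101266895 on the plus strand, starts inside the longer GENCODE gene model (chr15:101254269-101274795, 10 exons) and carries 4 cores in capitals, 233, 213, 69 and 40 bases before the start, all on the opposite strand and so read as cgtca. Of 32851 mouse promoter windows, 76 (0.231%) hold 4 or more cores, and 20.8% hold a core at all. The cut-off of 4 is the number found in Nr4a1 itself, so the small share is no test of whether Nr4a1 is unusual.
Nr4a1 promoter: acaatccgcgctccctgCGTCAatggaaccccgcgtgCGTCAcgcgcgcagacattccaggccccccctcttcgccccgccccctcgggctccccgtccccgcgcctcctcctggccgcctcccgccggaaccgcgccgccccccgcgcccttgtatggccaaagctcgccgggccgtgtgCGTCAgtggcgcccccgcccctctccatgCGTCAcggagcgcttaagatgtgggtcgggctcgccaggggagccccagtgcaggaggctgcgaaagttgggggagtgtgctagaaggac
Jun, a single-exon gene on chr4:95049034-95052222 (minus strand), has the octamer in capitals 45 bases before its start in chr4:95052173-95052472. Of all genes with a window, 4.18% hold this octamer.
Jun promoter: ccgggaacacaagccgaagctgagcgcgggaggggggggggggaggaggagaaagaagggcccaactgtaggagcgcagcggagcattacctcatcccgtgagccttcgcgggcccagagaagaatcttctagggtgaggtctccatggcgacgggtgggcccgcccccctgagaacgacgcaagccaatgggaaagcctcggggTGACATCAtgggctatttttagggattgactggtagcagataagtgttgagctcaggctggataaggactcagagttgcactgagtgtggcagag

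Jun itself was higher in KO over the course by 0.72 ± 0.15 log2 units (SE; edgeR, adjusted p = 8.08e-04). KO libraries had 0 h values of 35.3 and 26.9 CPM, 12 h values of 20.8 and 25.3, 18 h values of 18.9 and 12.7, 48 h values of 14.2 and 19.7, 72 h values of 23.0 and 50.9, 96 h values of 13.8 and 20.8, and 120 h values of 47.1 and 26.2. WT libraries had 0 h values of 24.9 and 17.2 CPM, 12 h values of 13 and 15.6, 18 h values of 13.5 and 18.7, 48 h values of 9.0 and 17.1, 72 h values of 15.5 and 12.0, 96 h values of 6.42 and 13.5, and 120 h values of 16.1 and 11.1. KO lay above WT without overlap at 0, 12, 72, 96 and 120 h, where 21.7, 22.5, 25.3, 22.3 and 30.3% of all genes did so. The highest value, 50.9 CPM, rests on 55 reads of the shallow KO library at 72 h that was rich in Sertoli markers. Without that library the mean difference was 0.64 (edgeR, adjusted p = 0.00197; 4.25e-07 to 0.118 over all settings).

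At 120 h Jun was higher in KO by 1.42 ± 0.40 (edgeR, adjusted p = 0.0206), and the call was lost without KO replicate 1 (0.74, adjusted p = 0.447) or WT replicate 2 (1.19, adjusted p = 0.192). Against 0 h, the only call for Jun was -1.10 ± 0.40 in WT at 96 h (edgeR, adjusted p = 0.046), which was lost in 15 of 38 settings. Of the exon length of Jun, 7.28% overlaps Junos, a transcript on the opposite strand, and the sources used here do not say whether counting used strand. Junos had 1.09 to 3.87 CPM in KO libraries and 0.498 to 6.40 CPM in WT libraries.

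Jund, the AP-1 subunit that is usually expressed steadily, was the most abundant of the 10 per exon length, with a median of 83.8 CPM per kb in KO libraries and 54.5 CPM per kb in WT libraries. In KO it had 0 h values of 81.9 and 119 CPM, 12 h values of 175 and 151, 18 h values of 178 and 162, 48 h values of 123 and 166, 72 h values of 142 and 119, 96 h values of 144 and 138, and 120 h values of 88.2 and 92.1. In WT it had 0 h values of 88.5 and 101 CPM, 12 h values of 93.1 and 101, 18 h values of 118 and 132, 48 h values of 77.0 and 146, 72 h values of 58.2 and 87.3, 96 h values of 72.7 and 96.4, and 120 h values of 67.4 and 63.7. The genotypes overlapped at 0 and 48 h, and KO lay above WT at 12, 18, 72, 96 and 120 h. At those times 22.5, 19.4, 25.3, 22.3 and 30.3% of all genes had both KO libraries higher. The mean difference was 0.51 ± 0.093 log2 units (SE; edgeR, adjusted p = 1.72e-04). Unlike Egr1 and Nr4a1, Jund rose after RA in KO, by 0.83 ± 0.25 at 18 h (edgeR, adjusted p = 0.0337), and this call was lost without KO replicate 1 of 0 h (adjusted p = 0.428) or either KO library of 18 h (0.192 and 0.0875). Gm11175, annotated on the opposite strand, overlaps 52.6% of the exon length of Jund but had at most 0.166 CPM in KO libraries and 0.133 CPM in WT libraries. The RefSeq start of Jund lies upstream of the GENCODE model used for its length, so its value per kb may be too high.

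Junb, a Jun relative with weaker transactivation, was low, at 1.09 to 11.1 CPM in KO libraries (median 2.53, 1 to 23 reads) and 0.115 to 3.47 CPM in WT libraries (median 1.29, 1 to 32 reads). It was higher in KO by 0.97 ± 0.31 log2 units over the course (edgeR, adjusted p = 0.0155). KO lay above WT without overlap at 0, 12, 72 and 120 h, with 3.13 and 3.03 CPM in KO against 1.18 and 0.92 CPM in WT at 12 h. At those times 21.7, 22.5, 25.3 and 30.3% of all genes had both KO libraries higher. The shallow KO library at 72 h was again the highest, and without it the mean difference was 0.86 (adjusted p = 0.0321). The call was lost without KO replicate 1 of 96 h (0.80, adjusted p = 0.177; range over all settings 0.00154 to 0.395). Prdx2 overlaps 7.52% of the exon length of Junb and was more abundant, at 18.8 to 48.7 CPM in KO libraries and 17.4 to 49.5 CPM in WT libraries, and reads shared by the 2 genes cannot be told apart.

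Ier2 had 4.64 to 16.7 CPM in KO libraries (median 8.65) and 4.01 to 9.83 CPM in WT libraries (median 5.36). Both KO libraries were above both WT libraries at 0, 12, 18 and 72 h, as they were for 21.7, 22.5, 19.4 and 25.3% of all genes. At 12 h, for example, Ier2 had 9.40 and 12.9 CPM in KO against 5.32 and 5.21 CPM in WT. Its mean difference of 0.48 ± 0.17 log2 units was the weakest of the 6 calls (edgeR, adjusted p = 0.0326). The call was lost in 20 of 41 settings, among them leaving out the shallow KO library at 72 h (0.41, adjusted p = 0.0698) and leaving out the 3 shallow KO libraries (0.34, adjusted p = 0.139; range over all settings 0.00904 to 0.596).

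Fos, the best known partner of Jun, showed no difference that passed. It had 15.6 to 43.5 CPM in KO libraries (median 25.3) and 15.7 to 45.9 CPM in WT libraries (median 23.4), with a mean log2 fold change of 0.04 ± 0.16 (edgeR, adjusted p = 0.884). Replicates of 0 h already differed as widely as any groups, at 40.5 and 21.0 CPM in KO and 45.9 and 16.0 CPM in WT. KO lay below WT at 12 h (22.9 and 21.7 against 37.5 and 24.4 CPM), where 25.5% of all genes did so. It lay above WT at 96 and 120 h (43.5 and 34.9 against 30.6 and 15.9 CPM at 120 h), where 22.3 and 30.3% of all genes did so. Fosb, a Fos relative, had 1.09 to 15.7 CPM in KO libraries (median 6.19) and 3.06 to 11.6 CPM in WT libraries (median 6.83), and a mean log2 fold change of -0.27 (adjusted p = 0.255). It was the only one of the 10 whose KO libraries lay below WT at 3 times (0, 12 and 96 h) and above it at none. At those times 19.4, 25.5 and 17.1% of all genes had both KO libraries lower. Fosb in the shallow KO library at 96 h rests on 1 read.

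Dusp1, the feedback phosphatase, had 11.9 to 29.8 CPM in KO libraries (median 22.0) and 9.65 to 33.2 CPM in WT libraries (median 15.9), with a mean log2 fold change of 0.23 (edgeR, adjusted p = 0.228). Its WT libraries of 0 h stood at 33.2 and 13.6 CPM, with 28.3 and 29.8 CPM in KO. Atf3 was the lowest of the 10 with Junb, at 0 to 4.64 CPM in KO libraries (0 to 28 reads) and 0.654 to 2.66 CPM in WT libraries (4 to 27 reads), and its mean log2 fold change was 0.44 (adjusted p = 0.173). In 1 shallow KO library, at 96 h, Atf3 had 0 reads, where a floor of 3 reads is 3.28 CPM, so its absence there carries no information. At 120 h Atf3 had 4.64 and 1.94 CPM in KO against 1.13 and 0.871 CPM in WT, a log2 fold change of 1.82 that did not pass (edgeR, adjusted p = 0.0563). Without the 3 shallow KO libraries it was 2.15, a value that rests on 1 KO library of 120 h with 28 reads of Atf3. Reads recovered from the deposited CPM values for KO at 120 h gave 5 reads of Atf3, or 1.21 CPM.

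**Figure D3:**
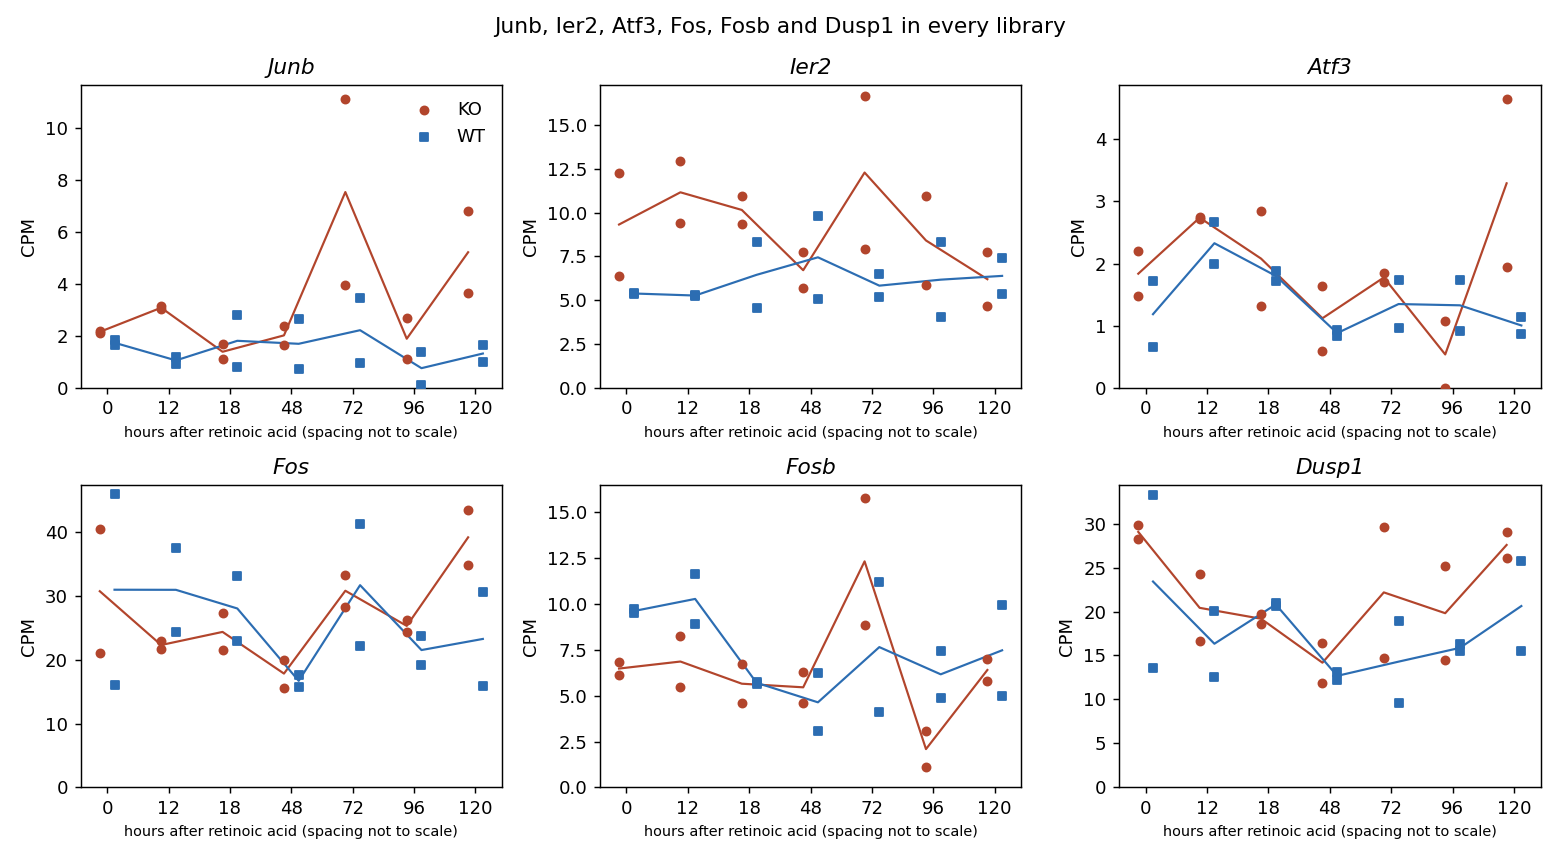
CPM of Junb, Ier2, Atf3, Fos, Fosb and Dusp1 in each of the 28 libraries (points) with the mean of each group (lines), by hours after RA, with KO as circles and WT as squares. The KO library at 72 h with 1079696 reads holds the highest Junb (11.1 CPM), Ier2 (16.7 CPM) and Fosb (15.7 CPM).

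The windows of the pair that was not called hold 2 cores (Fos) and 3 cores (Dusp1, with both strands of the full element counted), against 4 in Nr4a1 and 0 in Jun. Fos (chr12:85473640-85473939, plus strand) carries cores 129 and 66 bases before its start, in capitals. Dusp1 (chr17:26508423-26508722, minus strand) carries a core 191 bases and the full element TGACGTCA 143 bases before its start, both in capitals. The full element occurs in 2.03% of genes with a window and was found in 1 of the 8 genes, Dusp1. Its core occurs in 23% of genes and was found in 6 of the 8, all but Jun and Jund. The Jund window lies wholly upstream of the GENCODE model used for its exon length, so it may not describe the start of that model. The EGR site occurs in 6.27% of genes and was found in Fosb and Nr4a1. No window of the 8 held an AP-1 site (5.95% of genes) or a CArG box (1.81%), which says only that those letters are not in these 300 bases.
Fos promoter: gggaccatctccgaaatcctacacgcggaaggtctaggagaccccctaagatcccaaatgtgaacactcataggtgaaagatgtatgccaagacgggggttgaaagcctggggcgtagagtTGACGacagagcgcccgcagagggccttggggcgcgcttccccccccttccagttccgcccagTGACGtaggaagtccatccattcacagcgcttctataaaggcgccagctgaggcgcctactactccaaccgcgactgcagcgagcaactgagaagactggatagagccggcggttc
Dusp1 promoter: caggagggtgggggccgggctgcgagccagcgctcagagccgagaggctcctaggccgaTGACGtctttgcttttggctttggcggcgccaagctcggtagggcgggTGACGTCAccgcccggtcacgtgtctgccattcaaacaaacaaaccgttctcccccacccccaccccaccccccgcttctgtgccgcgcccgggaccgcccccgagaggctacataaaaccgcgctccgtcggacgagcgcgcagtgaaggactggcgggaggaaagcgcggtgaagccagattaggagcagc

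Which libraries carried the difference was checked within the count tables, each of which holds 1 library of every group. The KO columns that could be matched stand in the other order in the CPM tables, so these fits go by count table and not by a replicate number common to both. In the first table alone, Egr1, Jun, Junb, Jund and Ier2 were higher in KO (0.61, 0.80, 1.41, 0.69 and 0.63 log2 units) and Fosb was lower (-0.57, adjusted p = 0.0379), while Nr4a1 did not pass (0.42, adjusted p = 0.0933; edgeR with genotype and time as terms). In the second table alone, Egr1, Nr4a1 and Jund passed (1.05, 0.63 and 0.39) and so did Dusp1 (0.77, adjusted p = 0.0173). There Jun (0.68, adjusted p = 0.0777), Junb (0.72, adjusted p = 0.287) and Ier2 (0.49, adjusted p = 0.221) did not. Setting KO of the first table against WT of the second left Egr1 as the only call (1.04, adjusted p = 0.00318), and KO of the second against WT of the first gave all 6. The number of calls over all genes changed as well. It was 5670 of 14944 in the first table alone and 2037 of 13644 in the second alone. It was 1543 of 14489 for KO of the first against WT of the second, and 4445 of 14169 for the reverse. The calls of Egr1 thus held in all 4 pairings, and those of Jund in 3. These pairings are not independent of each other, because the KO and WT libraries of each table enter more than 1 of them. Each fit has 1 library per group and takes the different times as replicates of a genotype. The 4 results are therefore not separate replications. The 6 calls were also made by DESeq2 and with the reads recovered from the CPM tables for the 3 shallow KO libraries. Without the 3 shallow libraries 5 remained, all but Ier2.

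Over the time course within a genotype, edgeR called a change for 2 of the 10 genes in WT and 3 in KO. DESeq2 called 3 in WT and 4 in KO. With 2 libraries a group, a gene that was not called may still have changed. Any change over the 7 times was called for Egr1 and Nr4a1 in WT (edgeR, adjusted p = 1.63e-04 and 1.15e-04), where 37.3% of all genes passed. With the replicate numbers as a block in WT alone, Jund also passed (adjusted p = 0.0137, against 0.0605 without it). In KO it was called for Egr1, Nr4a1 and Jund (adjusted p = 0.00214, 0.0279 and 0.0369), where 15.8% of all genes passed. Of single later times against 0 h, 9 of 60 gene and time pairs were called in WT, all lower, and 6 of 60 in KO, 5 lower and 1 higher. The WT calls were 1, 1, 1, 1, 3 and 2 genes at 12, 18, 48, 72, 96 and 120 h, where 5.53, 6.87, 6.68, 6.33, 14.1 and 14.7% of all genes were lower. The KO calls were 2, 3, 0, 0, 1 and 0 genes at the same times, where 8.57, 8.93, 4.51, 0.491, 1.75 and 0.953% of all genes passed. At 48, 72 and 120 h, where edgeR called 0 in KO, 4, 2 and 1 of the genes had an unadjusted p under 0.05 and DESeq2 called 0. The WT block added Fosb at 48 h (-1.13, adjusted p = 0.0399, against 0.146 without it). The number of WT calls was 4 without WT replicate 1 of 0 h, and that of KO calls was 1 without KO replicate 1 of 0 h and 3 without KO replicate 1 of 18 h.

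**Figure D4:**
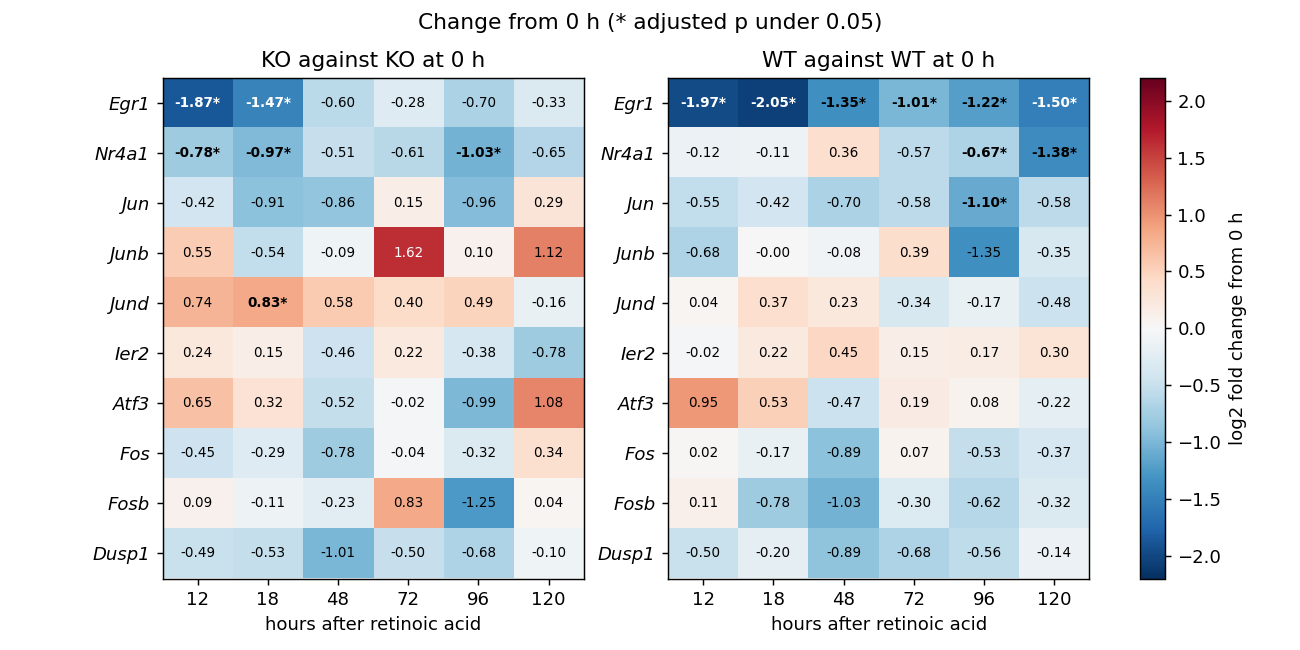
Log2 fold change from 0 h of the same genotype for the 10 genes at 6 later times, KO on the left and WT on the right (colour and printed value; * marks an adjusted p under 0.05). Egr1 carries 6 of the 9 WT calls, and Jund at 18 h is the only call above 0.

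Per exon length, Egr1 followed Jund with medians of 35.8 CPM per kb in KO libraries and 16.1 CPM per kb in WT libraries, and Nr4a1 came next with 15.7 in KO and 11.5 in WT. Fos (10.8 in KO and 9.93 in WT), Jun (6.88 and 4.55), Dusp1 (6.64 and 4.81) and Ier2 (5.68 and 3.52) formed the middle, and Junb (1.10 and 0.559), Fosb (0.991 and 1.09) and Atf3 (0.824 and 0.661) the low end. The library ranges of neighbours in this order overlapped in KO, and in WT they did so except between Ier2 (2.64 to 6.46 CPM per kb) and Fosb (0.490 to 1.86 CPM per kb). An example is Egr1 and Nr4a1 in KO (11.9 to 51.3 and 9.83 to 27.6 CPM per kb).

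Markers of other testis cells differed between libraries as well. The 8 peritubular and stromal markers, 8 of 8 detected in every library and none at 0, summed to 135 to 496 CPM in KO libraries (median 262) and 70.9 to 379 CPM in WT libraries (median 134). In KO their 0 h levels were 496 and 366 CPM, their 12 h levels 162 and 135 CPM and their 120 h levels 407 and 388 CPM. In WT their 0 h levels were 263 and 379 CPM, their 12 h levels 102 and 111 CPM and their 120 h levels 126 and 121 CPM. Over the course 2 of the 8 were higher in KO (median log2 fold change 0.18), and 1 of the 8 was lower at 12 h than at 0 h in each genotype. Of all genes, 17.4% were higher in KO over the course, the background for each marker list here. At 12 h against 0 h, 5.53% of all genes were lower in WT, and 8.57% passed in either direction in KO. Most of the sum was Col1a1 (47.4 to 403 CPM), with Acta2 at 0.794 to 14.8 CPM and Tagln at 0.299 to 3.13 CPM. The 10 Sertoli markers, 6 of them higher in KO, summed to 160 to 993 CPM in KO libraries (median 269) and 113 to 327 CPM in WT libraries (median 172), and 1 of them, Defb36, was at 0 in 2 libraries. In WT the Sertoli sum was 145 and 174 CPM at 12 h, against 113 and 152 CPM at 0 h. In KO it was 160 and 192 CPM at 12 h, against 274 and 174 CPM at 0 h. Of the 6 markers of undifferentiated spermatogonia, 6 were higher in KO, with sums of 804 to 1651 CPM in KO libraries (median 1031) and 364 to 1681 CPM in WT libraries (median 620). Macrophage and leukocyte markers (8 of 9 tabled) summed to at most 8.34 CPM in KO libraries and 5.90 CPM in WT libraries. Their part in the levels of Egr1 and the other immediate early genes was not tested.

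**Figure D5:**
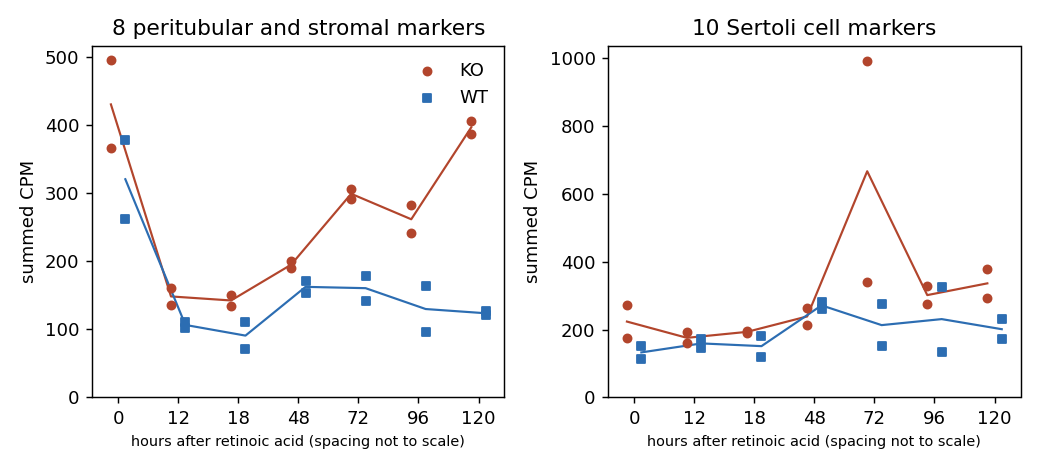
Summed CPM of 8 peritubular and stromal markers and of 10 Sertoli cell markers in each library (points) with group means (lines), by hours after RA, with KO as circles and WT as squares. The stromal sum at 120 h is 407 and 388 CPM in KO and 126 and 121 CPM in WT, and 1 KO library at 72 h reaches 993 CPM of Sertoli markers.

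Of 42 other immediate early genes tested, 16 were higher and 4 lower in KO over the course, with a median log2 fold change of 0.15. Of all genes, 17.4% were higher and 20.1% lower. Egr4, an Egr1 relative, was 1.66 ± 0.10 higher (mean of the group means 95.4 CPM in KO and 36.9 CPM in WT; edgeR, adjusted p = 1.08e-10). Gadd45g, a growth arrest gene, was 1.27 higher, Maff, a small Maf zipper factor, 1.19 higher, and Sgk1, a kinase gene induced by serum, 1.06 higher. Against 0 h, Egr4 fell in WT as Egr1 did, with a log2 fold change of -2.59 ± 0.28 at 18 h (19.8 CPM, against 116 CPM at 0 h), while Bhlhe40 rose by 2.92 and Nr4a3, an Nr4a1 relative, by 2.56 late in WT (96 and 120 h). In KO, Egr2 fell by 1.65 at 12 h and Zfp36, which destabilises mRNA, fell by 1.59 at 18 h. At 12 h, 7 of the 42 were lower and 1 higher in WT, where 5.53% of all genes were lower. In KO, 4 were lower and 1 higher, where 8.57% of all genes passed in either direction.

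Among 19 AP-1 partners and relatives, 7 were higher and 4 lower in KO over the course (median log2 fold change 0.14), led by Maff and by Batf3 (1.13 ± 0.14, adjusted p = 2.13e-06 in edgeR). Atf1, a CREB relative, was lower in KO (log2 fold change -0.47, with 64.0 CPM in KO and 87.5 CPM in WT). Of 42 transcription factors and kinases that act upstream, 11 were higher and 13 lower (median -0.09). For both lists the background was 17.4% of all genes higher and 20.1% lower in KO. Rps6ka4, which encodes a kinase of CREB and histone H3, was 1.59 ± 0.17 higher in KO (16.5 CPM in KO and 5.58 CPM in WT; adjusted p = 1.76e-07). Crtc3, a CREB coactivator, was 0.88 higher, and Crebbp was lower (-0.58).

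Of 18 MAP kinase phosphatases and feedback inhibitors tested, 7 were called over the course, a share near the 37.5% of all genes. In KO, 1 was higher (Dusp10, 0.79 ± 0.12) and 6 were lower, among them Rasa2 (-0.49) and Dusp16 (-0.44), with a median of -0.18. At 12 h against 0 h, 1 gene of this list was higher and 2 were lower in KO, where 8.57% of all genes passed. In WT, 3 were higher and 3 lower, where 1907 of 17519 genes passed. Dusp6 and Spry4, targets of FGF signalling, fell in both genotypes, and Dusp14 rose by 1.27 in KO. At 12 h, Dusp6 was -2.17 ± 0.30 in KO (8.91 CPM, against 40.1 CPM at 0 h) and -2.76 ± 0.30 in WT (6.76 CPM, against 46.1 CPM at 0 h), with adjusted p = 1.34e-04 and 2.12e-06 in edgeR. Spry4 was -3.48 in KO and -2.45 in WT at 12 h. Among 11 ETS and FGF or GDNF response genes, 2 were higher and 2 lower in KO over the course (median -0.01), and Etv5 fell by 2.48 in WT at 12 h. Kit, the marker of differentiating spermatogonia, rose by 5.09 in KO at 18 h and by 4.80 in WT at 12 h.

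Genes of stress pathways are known to be induced by cell handling. Of 19 integrated stress response genes, 11 were higher and 0 lower in KO (median 0.25), with Cebpb at 2.27 ± 0.25 (14.4 CPM in KO and 3.70 CPM in WT), Trib3 at 1.52 and Ddit4 at 1.45. Of 19 heat shock and chaperone genes, 5 were higher and 0 lower (median 0.05), with Hspa1a at 1.12 ± 0.20. Of all genes, 17.4% were higher and 20.1% lower in KO. As in Egr1, Ddit4 was high before RA and low at 18 h, with log2 fold changes of -3.12 in KO and -4.08 in WT. The stress genes did not all fall. At 12 h against 0 h, 2 integrated stress response genes were higher and 2 lower in KO. In WT, 1 was higher and 3 were lower. Cebpb (1.81) and Mthfd2 (1.09) were the higher genes in KO. The chaperone gene Hspa5 was higher at 12 h in KO (1.33) and WT (1.51), and Hspa1a was lower in WT at 18 h (-2.19). Whether handling differed between the libraries was not tested.

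The 10 genes did not move as 1 block. Over 28 libraries, Pearson r between pairs of them ran from -0.308 (Fosb and Jund) to 0.757 (Jun and Junb), as a description of libraries that share groups, depth and tables. The mean standardised profile of the 10 was closest to Jun (r = 0.907) and farthest from Jund (r = 0.295). Each of the 10 is itself part of this profile, which raises its r. These values are therefore not comparable with those of genes outside the 10. The genes outside the 10 with the highest Pearson r to that profile over the 28 libraries were Dedd2 (0.832), Mad1l1 (0.822), Col18a1 (0.822), Wnt5b (0.821), Mccc2 (0.819), Clcn2 (0.805), Myh14 (0.801), Klhl5 (0.800), Mib2 (0.799) and Slc38a7 (0.797).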

How the data were processed

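Germ cells sorted from KO and WT testes were profiled by polyA RNA sequencing on an Ion Proton sequencer, per the labels' protocols. The submitters' processing notes name Bowtie, TopHat, Cufflinks and the build mm10; no source used here gives their versions, how reads were counted or whether strand was used. The authors deposited raw read counts per gene symbol in a first and a second table, each with 1 library of all 14 groups. A pair of tables named FPKM in fact held CPM values: after dividing each deposited count column by its sum, 25 of 28 CPM columns were matched within 0.001 CPM. All 11 KO columns matched stood in the opposite table (first CPM with second count table, and the reverse), so KO replicate numbers are exchanged between them. The other 3 (KO at 72, 96 and 120 h) matched no count column, and their low values were whole reads (within 0.1 read for 100%), which gave totals of 4479729, 4190650 and 4122223 reads. These recovered reads were used only as an alternative. Which set is right is not known. For the first WT table, the tables list 27.1 to 33.1% of reads outside features, 14.3 to 16.2% with several alignments and 0.680 to 0.785% as ambiguous.

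Of 43280 features, 27 with date-like names (0.0946 to 0.135% of reads) were left out of the tests. Counts were tested with edgeR 4.0.16 (limma 3.58.1, R 4.3.3): TMM, default expression filter, 14 group means, robust quasi-likelihood tests and Benjamini-Hochberg adjustment per comparison over 17519 genes. SE is the absolute log2 fold change over the root of F. CPM per library uses the column total; no depth limit other than a floor of 3 reads was applied, and that floor covers counting error only. DESeq2 1.42.0 was an alternative. The tests were checked on simulated data. Positions and exon lengths came from GENCODE (GRCm38), promoter sequences from RefSeq (GRCm38.p6).

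The 10 genes, the pathway lists and the marker lists were chosen with earlier results of these data known. From each pathway list, up to 4 called genes with the largest absolute log2 fold change and at least 5 CPM in a compared group were eligible to be named per kind of comparison; the genes most like the 10 needed a mean of 5 CPM and a gene name. Deviations from group means correlated at 0.258 to 0.517 between same-numbered WT libraries of different times (21 of 21 pairs), so the numbers, which follow the tables, pair WT libraries. In KO they ran from -0.138 to 0.567 (7 of 21 over 0.1, with 0.509 to 0.567 among 72, 96 and 120 h, where replicate 2 is the shallow library), and between KO and WT of a time from -0.129 to 0.0433. The numbers were therefore not taken to pair KO libraries over the whole course, or KO with WT. A replicate block is therefore given beside WT results where it changes a call.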

Additional observations from a re-analysis of the deposited data

Results flagged for a closer look

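In 6 cases both libraries of a group moved one way and both libraries of another group the opposite way, and no gene among them passed the genotype by time test in edgeR; Nr4a1 did in DESeq2 (adjusted p = 0.0163) and in edgeR without the expression filter (0.0093). Fos in KO lay below WT at 12 h and above it at 96 h, a difference of 0.676 log2 units between the KO and WT fold changes (0.19 at 96 h and -0.48 at 12 h). It also lay above WT at 120 h (0.70), a difference of 1.18. Dusp1 did so between 120 h (0.32) and 18 h (-0.05), a difference of 0.365. From 0 to 12 h Junb changed by 0.55 in KO and by -0.68 in WT, a difference of 1.24. From 0 to 72 h Jund changed by 0.40 in KO and by -0.34 in WT, a difference of 0.749. From 0 to 48 h Nr4a1 changed by -0.51 in KO and by 0.36 in WT, a difference of -0.874. None of the 6 single differences was tested on its own. With 2 libraries a group, a separation of KO from WT at one time is frequent. Both KO libraries lay above both WT libraries for 19.4 to 30.3% of all genes, depending on the time. They lay below both for 17.1 to 32.1% at 0, 12, 18 and 96 h. The share lying below is not given for the other times. How often all genes show 2 opposite separations, or opposite changes from 0 h in KO and WT, was not counted.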

How the results depend on the processing

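The 6 genes higher in KO over the course were called in every scaling, filter and block setting, by DESeq2 and with recovered reads; 5 to 6 genes passed when 1 library was left out, and 1 when KO of the first table was set against WT of the second. The number of single-time KO and WT calls was 3, and became 8 without the expression filter, 6 with a replicate block, 7 with the block and KO numbers exchanged, 7 with recovered reads and 7 with DESeq2 (1 to 4 with 1 library left out); the numbers do not pair KO with WT. Calls against 0 h in KO were 6, and became 3 without the 3 shallow libraries and 10 with KO fitted alone (1 to 7 with 1 library left out); in WT they were 9, and 6 with WT fitted alone (lost: Egr1 at 72 h, adjusted p = 0.0897, and Jun and Nr4a1 at 96 h, 0.0591 and 0.0707) and 4 to 10 with 1 library left out. Interaction calls were 0, and 1 without the filter or with DESeq2 (0 to 0 with 1 library left out). Genes with any change in KO were 3, and 1 without the 3 shallow libraries (1 to 4 with 1 library left out), and in WT 2 (2 to 3).

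The mean fold change reversed for Fos in the first table (-0.11), in KO of the second against WT of the first table (-0.33) and with 9 of 28 libraries left out in turn (-0.0734 to 0.1675), for Fosb in the second table (0.20) and in KO of the first against WT of the second (0.062), for Dusp1 in the first table (-0.16), and for Atf3 without KO replicate 1 of 96 h (-0.35 to 0.56 with 1 library left out). The pairings of tables, single-table fits, the WT block and the fit without 0 h were chosen after seeing the data. Over 33 results for single genes and 15 settings other than leaving out a library, 313 values kept direction and side, 24 lost the call, 2 gained it and 5 reversed. Where 1 library was left out, its group had 1 library, assumed to vary like the others. Depth limits Junb, Atf3 and Fosb, with 1 read or fewer in 1 or more libraries. No cause of these changes was tested.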
